A study of Rattus norvegicus with 28 samples.

Results

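Glutathione transferases, glutathione peroxidases, peroxiredoxins and thioredoxins were followed in rat gastrocnemius muscle during an intensive care model. The array table held 42 probe sets, of 26208 in all, whose gene symbol belongs to the alpha, kappa, mu, omega, pi, theta or zeta glutathione transferases, to the microsomal glutathione transferases (Mgst), or is Gpx, Prdx or Txn with a number. They carried 38 distinct symbols. Of the 42 probe sets, 25 measured glutathione transferases, 3 of which were microsomal, 8 measured glutathione peroxidases, 7 peroxiredoxins and 2 thioredoxins. No zeta probe set matched.

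All 28 animals were female Sprague-Dawley rats, and RNA came from the proximal gastrocnemius, measured on Affymetrix Rat Gene 1.0 ST arrays. The 23 ventilated rats were anaesthetised with isoflurane, paralysed with the post-synaptic neuromuscular blocker α-cobrotoxin and mechanically ventilated. They formed a 0.25-4d group of 13 rats (6 h to 4 days), a 5-8d group of 4 rats (5 to 9 days in the labels' design text) and a 9-14d group of 6 rats. The 5 sham controls were operated and anaesthetised but breathed spontaneously, were not paralysed and were killed within hours, so duration of anaesthesia, ventilation and paralysis changed together. The source line of the control labels also mentions blockade and ventilation; the titles and sample types, which name them controls, were followed. Values are group log2 changes against sham control from the deposited table, and values of single rats were not analysed here. The spread is therefore given as the standard error (SE), the within-group standard deviation (SD) or the 95% confidence interval recovered from the adjusted p-values. The SD is a single value per probe set, pooled over all groups, and does not give the spread of a given group. A probe set was called when its fold change was at least 2 and its adjusted p below 0.05, the rule in the study's methods, and "rose" and "fell" are used of adjusted p below 0.05. In whole muscle, fewer cells of a type and less RNA per cell cannot be told apart.

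Glutathione transferases join the tripeptide glutathione to electrophiles such as products of lipid peroxidation, and the soluble classes differ in substrates and tissue. The microsomal enzymes are a separate family of membrane proteins that act on lipid hydroperoxides and leukotrienes. Glutathione peroxidases and peroxiredoxins reduce hydrogen peroxide and organic peroxides; the former mostly draw electrons from glutathione, and most of the latter draw them from thioredoxin, a small protein kept reduced by thioredoxin reductase. Many of these genes are textbook targets of NRF2, a transcription factor that binds the antioxidant response element.

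Promoter sequences were taken from RefSeq (assembly GRCr8), from 250 bases before to 50 bases after each gene's start. They were present for 32 of the 38 symbols, after file symbols were updated through RefSeq accessions (the file's Gsta3 is now Gsta1, and its Gsta5 is now Gsta3). The letters TGAC and GC with any 3 letters between them (TGACNNNGC), the core of the antioxidant response element, were searched on both strands. They occurred in 10 of the 36 promoters of these genes (27.78%) and in 12.06% of all 33469 promoters of the same length. Some of the 36 windows overlap, as for Gpx4 and Gsto2, and the matches of Gsta1 and Gsta3 lie in similar sequence. The windows are thus not independent, and the difference in share was not tested. A match whose letters run TGACTCA also spells the AP-1 site, as in Gstp1 and Prdx1. A match is a description of letters and not a binding site. Of the 10 genes with a match, 3 had a probe set that rose at some duration, 2 had a probe set that fell and 5 had neither; of the 22 without a match, 6 rose, 5 fell and 11 did neither. The promoters shown were chosen because Gstm5 and Gstm7 lie in the same gene cluster, moved in opposite directions at 5-8d and both carry the core, Gpx2 and Prdx1 passed the adjusted p at 9-14d and not at the shorter durations, and Gstp1 carries the core while its probe set lay between -0.12 and -0.01. Matches are in capitals, 5′ to 3′ on the gene's strand.
Gstm5: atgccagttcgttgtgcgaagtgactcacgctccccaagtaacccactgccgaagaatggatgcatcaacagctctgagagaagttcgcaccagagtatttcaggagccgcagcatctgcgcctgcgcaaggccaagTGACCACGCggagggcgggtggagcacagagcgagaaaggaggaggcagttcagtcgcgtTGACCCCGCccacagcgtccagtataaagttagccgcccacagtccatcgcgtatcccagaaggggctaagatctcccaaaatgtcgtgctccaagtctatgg
Gstm7: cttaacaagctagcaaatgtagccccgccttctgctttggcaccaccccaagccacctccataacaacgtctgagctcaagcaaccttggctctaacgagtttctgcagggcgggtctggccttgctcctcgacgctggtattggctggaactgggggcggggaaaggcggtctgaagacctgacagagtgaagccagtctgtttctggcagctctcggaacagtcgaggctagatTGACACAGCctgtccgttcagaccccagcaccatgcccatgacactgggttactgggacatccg
Gpx2: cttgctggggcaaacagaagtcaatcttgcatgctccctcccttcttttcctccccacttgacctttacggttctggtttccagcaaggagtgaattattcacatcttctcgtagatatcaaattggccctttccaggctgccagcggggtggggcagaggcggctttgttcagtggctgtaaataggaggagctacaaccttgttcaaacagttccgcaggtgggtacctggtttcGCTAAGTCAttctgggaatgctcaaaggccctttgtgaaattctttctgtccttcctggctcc
Prdx1: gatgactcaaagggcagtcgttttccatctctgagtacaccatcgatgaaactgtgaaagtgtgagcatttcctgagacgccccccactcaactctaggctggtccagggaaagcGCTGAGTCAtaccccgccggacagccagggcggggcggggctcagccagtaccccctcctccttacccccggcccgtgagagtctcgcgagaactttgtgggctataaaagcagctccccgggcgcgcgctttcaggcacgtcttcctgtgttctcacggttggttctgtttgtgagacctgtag
Gstp1: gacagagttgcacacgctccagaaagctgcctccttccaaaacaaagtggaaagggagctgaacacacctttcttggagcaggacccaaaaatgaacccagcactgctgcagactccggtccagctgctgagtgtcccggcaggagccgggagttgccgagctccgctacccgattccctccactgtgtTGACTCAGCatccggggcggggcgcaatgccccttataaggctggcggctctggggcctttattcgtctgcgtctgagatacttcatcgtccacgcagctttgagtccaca

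The Gstm5 window is chr2:198219519-198219818 on the plus strand, with matches that begin at -113 and -53 from the start. The Gstm7 window is chr2:198260270-198260569 on the minus strand, with its match at -14. The Gpx2 window is chr6:101229984-101230283 on the minus strand, with its match at -13, and the Prdx1 window is chr5:135383656-135383955 on the plus strand, with its match at -135. The Gstp1 window is chr1:210769656-210769955 on the minus strand, with its match at -61.

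At 0.25-4d, a group that pooled rats from 6 h to 4 days, few of these genes and few of all probe sets moved. None of the 42 probe sets was called at 0.25-4d by the limma test, against 0.549% of all probe sets. By the same test, 8 of the 42 had an unadjusted p below 0.05, beside 4409 of all 26208. A single probe set, that of Gpx3, passed the adjusted p alone (2.38% of the 42), against 3.54% of all probe sets. These counts are near the shares of all probe sets, so nothing particular to these genes is read from them. At 5-8d, 6 probe sets were called higher (2.55% of all were) and 2 lower (2.66% of all). At 9-14d, 8 were called higher (3.01% of all) and 1 lower (2.12% of all). By adjusted p alone, 9 rose and 7 fell at 5-8d (14.9% and 11.4% of all), and 14 rose and 7 fell at 9-14d (17.3% and 18.2% of all). The median log2 change of the 42 was 0.06, 0.13 and 0.25 at the 3 durations, beside -0.01, -0.04 and -0.07 over all probe sets. All 6 microsomal and theta probe sets were called at 5-8d, and all 6 at 9-14d. No alpha, kappa, omega, pi, peroxiredoxin or thioredoxin probe set was called at any duration. At the shares of all probe sets given above, few calls would fall in so few probe sets, so their absence is not read as a result. All comparisons share the same 5 controls.

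**Figure D1:**
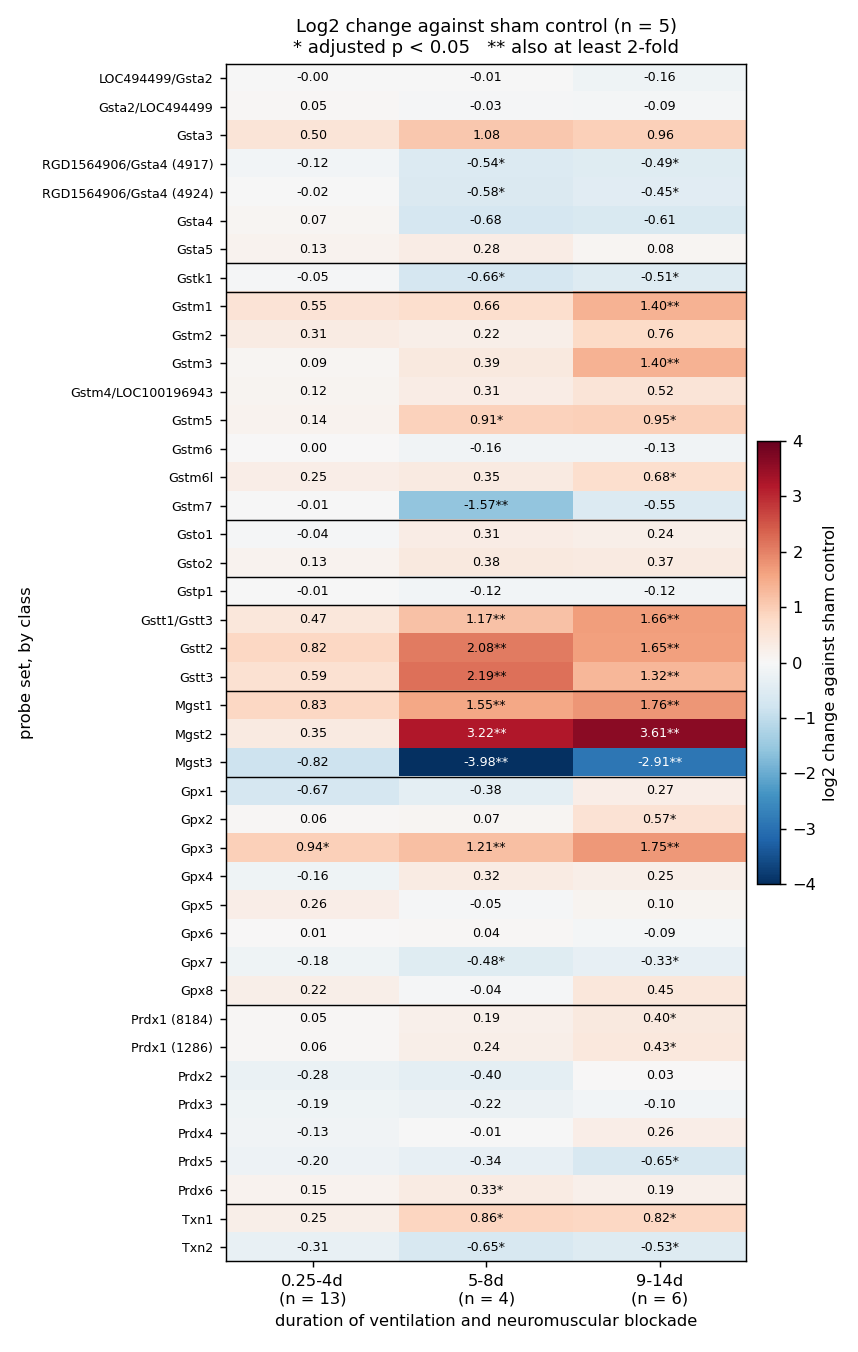
Log2 change of the 42 probe sets (rows, ordered by class, lines between classes) against sham control at the 3 durations (columns); red is higher, blue is lower, 1 asterisk marks adjusted p below 0.05 and 2 asterisks also a fold change of at least 2. The strongest colours are Mgst2 (3.22 and 3.61) and Mgst3 (-3.98 and -2.91) at 5-8d and 9-14d, and the 0.25-4d column is pale, with Gpx3 its only marked cell.

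The largest changes among the 42 at 5-8d and 9-14d were those of 2 microsomal genes, in opposite directions. Mgst2, which can join glutathione to leukotriene A4 (probe set 10815308, chr2:140547104-140568616 on RGSC3.4), was up-regulated 9.29-fold at 5-8d and 12.2-fold at 9-14d. From the shortest to the longest duration, log2 changes of 0.35 ± 0.36 (SE), 3.22 ± 0.46 and 3.61 ± 0.42 were measured, with adjusted p of 0.712, 7.79e-06 and 1.38e-07. The 95% interval ran from -0.40 to 1.10 at 0.25-4d and from 2.26 to 4.17 at 5-8d.

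Mgst3, a relative with peroxidase activity toward lipid hydroperoxides (probe set 10769629, chr13:83038049-83058845), was down-regulated 15.8-fold at 5-8d and 7.50-fold at 9-14d. In the same order its log2 changes were -0.82 ± 0.39, -3.98 ± 0.50 and -2.91 ± 0.45, with adjusted p of 0.291, 1.16e-06 and 1.34e-05. Mgst1, the enzyme of the endoplasmic reticulum and outer mitochondrial membrane (chr4:175248658-175263881), had 0.83 ± 0.31, 1.55 ± 0.40 and 1.76 ± 0.36, with adjusted p of 0.149, 0.0045 and 0.000407. It lay above both Mgst2 and Mgst3 at 0.25-4d, and between them at 5-8d and 9-14d. The within-group SD of these probe sets was 0.69 for Mgst2, 0.75 for Mgst3 and 0.60 for Mgst1, above the median of 0.20 over all probe sets, and their changes at both later durations exceeded it.

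Mgst2 and Mgst3 both differed between the later durations and the first 4 days. Mgst2 was 7.30-fold higher at 5-8d than at 0.25-4d (log2 difference 2.87, interval 2.06 to 3.68, adjusted p = 3.942e-06) and 9.59-fold higher at 9-14d than at 0.25-4d (3.26, interval 2.56 to 3.96, adjusted p = 1.451e-08). Mgst3 was 8.97-fold lower at 5-8d than at 0.25-4d (-3.17, interval -4.04 to -2.29, adjusted p = 2.873e-06) and 4.26-fold lower at 9-14d (-2.09, interval -2.85 to -1.33, adjusted p = 6.339e-05). From 5-8d to 9-14d Mgst3 differed by 1.08 with an interval of 0.09 to 2.07 and an adjusted p of 0.329, and Mgst2 by 0.39 with an interval of -0.52 to 1.31 and an adjusted p of 0.753. Markers of slow fibres were below control too, on 6 measured genes that include Myh7 and Myl2. They lay between -1.32 and -0.97 at 0.25-4d with none called, and between -3.31 and -1.02 at 5-8d with 1 called lower. At 9-14d they lay between -4.09 and -2.19, with 4 called lower. Their medians were -1.19, -2.49 and -3.26 at the 3 durations. Fibroblast and red blood cell markers had medians of -0.38 and -0.01 at 0.25-4d, -1.31 and -1.59 at 5-8d, and -0.45 and -0.46 at 9-14d. The part of these markers in the Mgst3 result was not tested. None of the 6 general skeletal muscle probe sets was called at any duration, and they lay between -0.70 and 0.04, with 1 lower at 5-8d and 3 lower at 9-14d by adjusted p alone. The table gives changes and not levels, so the presence of these transcripts could not be checked.

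**Figure D2:**
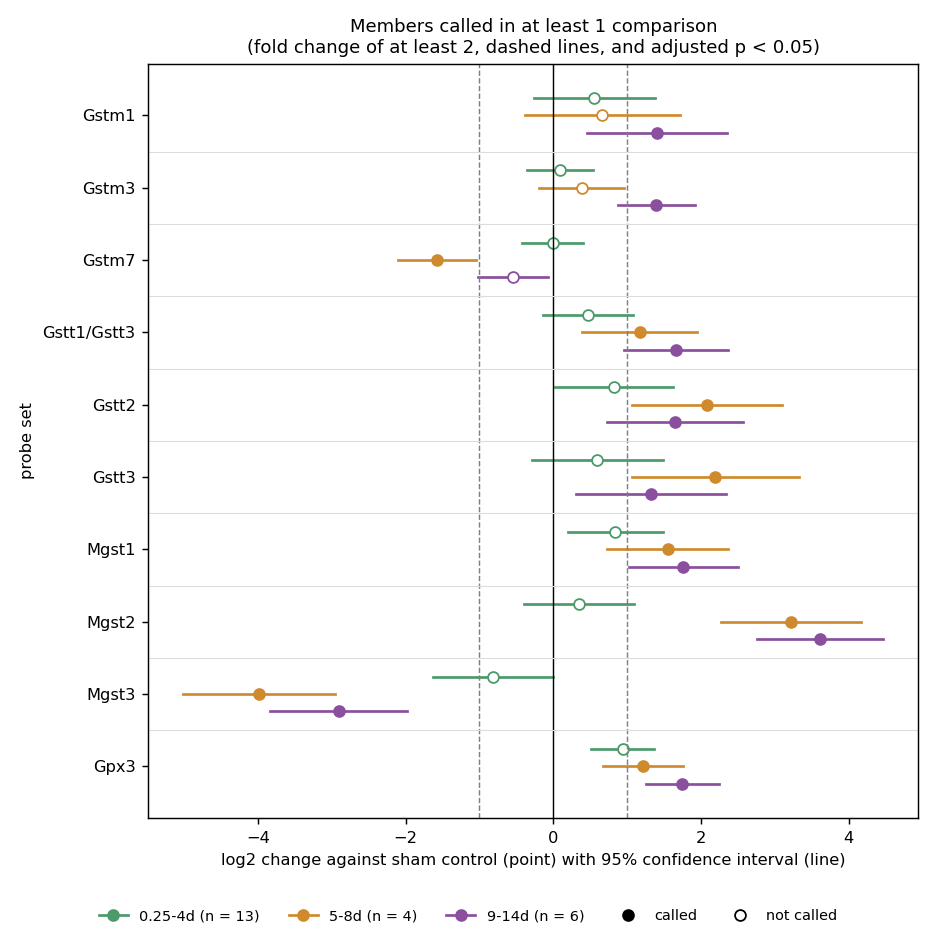
Log2 change against sham control (x axis, points) with the 95% confidence interval (lines) for the 10 probe sets called in at least 1 comparison; colours are the 3 durations, filled points are called and dashed lines mark a 2-fold change. The 0.25-4d points lie between the dashed lines for all 10, Mgst2 and Mgst3 lie farthest from 0 at the later durations, and Gstm7 is the only other probe set called lower.

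Theta class transferases, which act on small halogenated molecules and sulfate esters, rose together at 5-8d and 9-14d. Gstt2 (chr20:13221692-13225367) had log2 changes of 0.82 ± 0.39, 2.08 ± 0.50 and 1.65 ± 0.45, with adjusted p of 0.278, 0.00221 and 0.00538, a 4.23-fold and a 3.13-fold change at the later durations. Gstt3 (chr20:13599148-13603193) had 0.59 ± 0.43, 2.20 ± 0.55 and 1.32 ± 0.50, with adjusted p of 0.540, 0.00344 and 0.0392. Its call at 9-14d was lost when the 3 comparisons were adjusted together (adjusted p = 0.0573). The probe set assigned to both Gstt1 and Gstt3 (chr20:13596710-13621456) had 0.47 ± 0.30, 1.17 ± 0.38 and 1.66 ± 0.34, with adjusted p of 0.465, 0.0216 and 0.000426. Its region overlaps that of the Gstt3 probe set, so these probe sets do not count as separate genes and the share of Gstt1 is uncertain. At 5-8d Gstt2 and Gstt3 were above 0.25-4d by 1.26 (interval 0.39 to 2.12, adjusted p = 0.0322) and 1.60 (interval 0.64 to 2.56, adjusted p = 0.0134). The joint Gstt1 and Gstt3 probe set passed this comparison at 9-14d, by 1.20 (interval 0.62 to 1.77, adjusted p = 0.00147), and not at 5-8d, where the difference was 0.71 with an interval of 0.04 to 1.37.

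Mu class transferases, which act on many aromatic electrophiles, did not move together. Their 8 genes lie in a single cluster of 154.7 kb (chr2:203456122-203610817 on RGSC3.4), 1 on the plus strand and 7 on the minus strand. Gstm5, at the plus-strand edge of the cluster, rose at 5-8d and 9-14d: its log2 changes were 0.14 ± 0.17, 0.91 ± 0.22 and 0.95 ± 0.20, with adjusted p of 0.761, 0.0027 and 0.000567, under the 2-fold limit throughout. Gstm7, 2 places further along the cluster, was down-regulated 2.98-fold at 5-8d. Its log2 changes were -0.01 ± 0.20, -1.57 ± 0.26 and -0.55 ± 0.23, with adjusted p of 0.989, 3.53e-05 and 0.0648. At 5-8d it was 2.96-fold lower than at 0.25-4d (log2 difference -1.565, interval -2.01 to -1.12, adjusted p = 4.302e-06). Red blood cell and fibroblast markers were also low at 5-8d: the 5 red blood cell probe sets had a median of -0.01 at 0.25-4d, -1.59 at 5-8d (4 called lower) and -0.46 at 9-14d (none called), and the 5 fibroblast genes -0.38 (none called), -1.31 (3 called lower) and -0.45 (1 called lower). Their part in the Gstm7 result was not tested.

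Gstm3 and Gstm1 were called at 9-14d. Gstm3 had 0.09 ± 0.22, 0.39 ± 0.28 and 1.40 ± 0.25, with adjusted p of 0.899, 0.346 and 9.85e-05, a 2.63-fold rise at the longest duration. It was 1.30 higher at 9-14d than at 0.25-4d (interval 0.88 to 1.73, adjusted p = 1.371e-05). Gstm1 had 0.55 ± 0.40, 0.66 ± 0.51 and 1.40 ± 0.46, with adjusted p of 0.540, 0.380 and 0.0193. Its SD of 0.76 was the largest of the class, and its difference of 0.85 between 9-14d and 0.25-4d had an interval of 0.08 to 1.62 and an adjusted p of 0.0783. Gstm6l rose to 0.68 at 9-14d with an adjusted p of 0.0113. Gstm2 and Gstm4 were at 0.76 and 0.52 with adjusted p of 0.0698 and 0.0636, and Gstm6 at -0.13. In all, 4 of the 8 rose and none fell at 9-14d, and 1 rose and 1 fell at 5-8d. Of all probe sets, 17.3% rose and 18.2% fell at 9-14d, and 14.9% rose and 11.4% fell at 5-8d. These genes are close in sequence, and how far probes of 1 gene bind RNA of another was not tested, although the annotation marks no mu probe set as cross-hybridising.

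**Figure D3:**
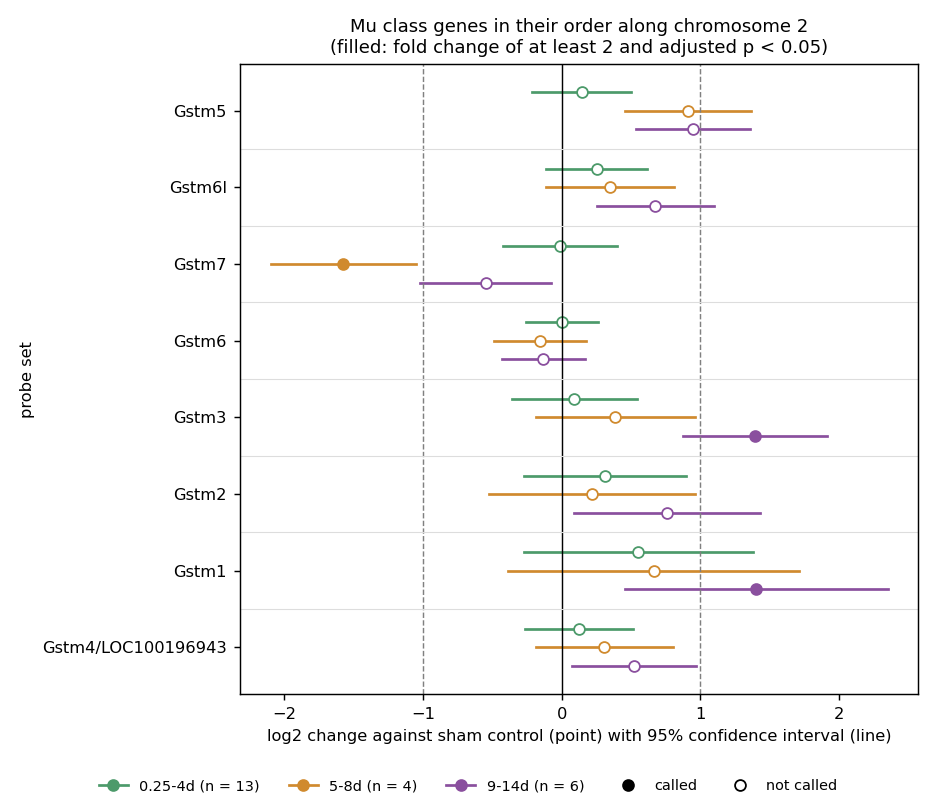
Log2 change against sham control (x axis, points) with the 95% confidence interval (lines) for the 8 mu class probe sets, listed from top to bottom in their order along chromosome 2; colours are the 3 durations, filled points are called and dashed lines mark a 2-fold change. Gstm7 alone lies below 0 with its whole interval at 5-8d (-1.57), while Gstm5 lies at 0.91; Gstm3 and Gstm1 are filled at 9-14d.

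In the other soluble classes no probe set was called, and with so few probe sets nothing is read from this. Of 7 alpha probe sets, 2 fell at 5-8d and at 9-14d, where 11.4% and 18.2% of all probe sets fell. Both alpha probe sets that fell, assigned to Gsta4 and RGD1564906, lie on chromosome 6 and are marked as cross-hybridising. Their log2 changes were -0.54 and -0.58 at 5-8d and -0.49 and -0.45 at 9-14d. The probe set at the Gsta4 gene on chromosome 8, whose enzyme clears the lipid peroxidation product 4-hydroxynonenal, was at -0.68 and -0.61 with adjusted p of 0.114 and 0.0939, and was lower than at 0.25-4d by -0.75 at 5-8d (adjusted p = 0.0439). The file's Gsta3 had a log2 change of 1.08 at 5-8d, but its SD was 0.91, the largest of the 42, and its adjusted p was 0.210. Gstk1, a mitochondrial and peroxisomal transferase, fell by 0.66 at 5-8d and by 0.51 at 9-14d (adjusted p of 0.0164 and 0.0323). The omega genes Gsto1 and Gsto2, which reduce dehydroascorbate, were at 0.31 and 0.38 at 5-8d with adjusted p of 0.134 and 0.0903. Gstp1, the pi class enzyme, was at -0.01, -0.12 and -0.12, with a 9-14d interval of -0.47 to 0.24.

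Among the glutathione peroxidases, Gpx3 rose at every duration. Gpx3, the secreted plasma enzyme and a selenoprotein (chr10:40311122-40319381), had log2 changes of 0.94 ± 0.21, 1.21 ± 0.27 and 1.75 ± 0.24, with adjusted p of 0.00871, 0.00104 and 2.14e-06. It was 1.92-fold higher in the first 4 days, 2.32-fold at 5-8d and 3.36-fold at 9-14d. The step from 0.25-4d to 9-14d was 0.81 with an interval of 0.40 to 1.21 and an adjusted p of 0.00215, and the step from 0.25-4d to 5-8d was 0.27 with an interval of -0.19 to 0.74. Macrophage and leukocyte markers moved at 9-14d too: 7 of 8 were called higher there and lay between 0.68 and 1.80, whereas at 5-8d none was called and they lay between -0.24 and 0.47. At 0.25-4d 1 of the 8, Cd163, was called higher. Of 4 fat cell markers, none was called at 0.25-4d and 5-8d, where they lay between 0.41 and 1.18 and between 0.20 and 0.54, and 1, Cfd, was called higher at 9-14d, where they lay between -0.07 and 1.05. The part of either marker list in the values of Gpx3 and of the other members that rose was not tested.

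Of the other peroxidases, Gpx7, which works in the endoplasmic reticulum, fell by 0.48 at 5-8d and by 0.33 at 9-14d (adjusted p of 0.00306 and 0.019), and Gpx2, best known from the gut, rose by 0.57 at 9-14d (adjusted p = 0.0478). The Gpx1 probe set is annotated at 16_random:1045508-1046570, whereas the Gpx1 promoter in RefSeq is on chromosome 8. How far this probe set reads the gene on chromosome 8 was not tested. Gpx1, the ubiquitous cytosolic enzyme, had log2 changes of -0.67, -0.38 and 0.27 against control, none with an adjusted p under 0.05, and was 0.94 higher at 9-14d than at 0.25-4d (interval 0.31 to 1.57, adjusted p = 0.0184). Gpx4, which reduces phospholipid hydroperoxides inside membranes, was at -0.16, 0.32 and 0.25 against control. It was 0.48 higher at 5-8d and 0.40 higher at 9-14d than at 0.25-4d (adjusted p of 0.00356 and 0.00308). Gpx8 was at 0.45 at 9-14d with an adjusted p of 0.0516. Gpx5 and Gpx6, known from epididymis and olfactory epithelium, lay between -0.09 and 0.26 at the 3 durations.

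No peroxiredoxin changed by 2-fold. Prdx1, a cytosolic enzyme, rose at 9-14d on both of its probe sets, by 0.43 at the gene on chromosome 5 and by 0.40 at a locus on chromosome 2 (adjusted p of 0.0302 and 0.0355); both are marked as cross-hybridising, so they are not independent readings. Prdx5, found in mitochondria, peroxisomes and cytosol, fell by 0.65 at 9-14d (interval -0.97 to -0.32, adjusted p = 0.0023). Prdx6, which also has phospholipase activity, rose by 0.33 at 5-8d (adjusted p = 0.0282) and was at 0.19 at 9-14d. The mitochondrial Prdx3 lay between -0.22 and -0.10 at all durations. Prdx4, in the endoplasmic reticulum, was 0.39 higher at 9-14d than at 0.25-4d (adjusted p = 0.00137), while its change against control was 0.26 (adjusted p = 0.0703). Prdx2, abundant in red blood cells, was at -0.28, -0.40 and 0.03. Of 5 red blood cell probe sets, 4 were called lower at 5-8d, with all 5 between -1.89 and -1.13, and none was called at 9-14d; their part in the Prdx2 values was not tested.

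The cytosolic and mitochondrial thioredoxins went in opposite directions. Txn1, in the cytosol, rose to 0.86 ± 0.14 at 5-8d and 0.82 ± 0.13 at 9-14d, with adjusted p of 3.39e-05 and 1.09e-05. Txn2, in mitochondria, fell to -0.65 ± 0.14 and -0.53 ± 0.13, with adjusted p of 0.0011 and 0.00219. Neither reached 2-fold; the largest fold was the 1.82-fold rise of Txn1 at 5-8d. The SD of both was 0.21, and each of these changes exceeded it. Txn1 was 0.61 higher at 5-8d than at 0.25-4d (adjusted p = 0.000328), and Txn2 0.34 lower (difference -0.34, adjusted p = 0.0475).

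Across durations, 5 members differed by at least 2-fold between 5-8d and 0.25-4d (2.68% of all probe sets did), namely Mgst2, Gstt2 and Gstt3 upwards and Mgst3 and Gstm7 downwards. By adjusted p alone 16 differed (21.3% of all), 7 upwards and 9 downwards, beside 3573 upwards and 2002 downwards of all 26208. Between 9-14d and 0.25-4d, 4 differed by at least 2-fold (3.32% of all), Mgst2, Gstm3 and the joint Gstt1 and Gstt3 probe set upwards and Mgst3 downwards. By adjusted p alone 22 did (35.5% of all), 15 upwards and 7 downwards, beside 4752 upwards and 4555 downwards of all 26208. Between 9-14d and 5-8d none of the 42 differed by the same moderated test, with or without the 2-fold limit, against 0.21% and 0.408% of all probe sets. An unadjusted p below 0.05 was found for 8 of the 42 and for 3472 of all 26208. The nearest were Gstm7, 1.03 higher at 9-14d than at 5-8d (interval 0.53 to 1.53, adjusted p = 0.0562), and Gstm3, 1.01 higher (interval 0.46 to 1.56, adjusted p = 0.0828). Both were called when the 3 pairs of durations were adjusted together, and Gstm7 was called when only probe sets with a symbol were adjusted or each comparison was centred on its median. 

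Genes that supply the same pathways were counted by the same rules, against the same shares of all probe sets. At 0.25-4d 0.549% were called in either direction. At 5-8d 2.55% were called higher and 2.66% lower, and at 9-14d 3.01% and 2.12%. Of 22 probe sets for glutathione synthesis and recycling, none was called at 0.25-4d, 2 were called higher and 2 lower at 5-8d, and 1 each way at 9-14d. Gsr, the reductase that regenerates glutathione, had a log2 change of 1.30 at 5-8d (adjusted p = 0.00407) and 0.91 at 9-14d (adjusted p = 0.0189). The other called higher was a probe set assigned to Pgd, of the pentose phosphate pathway, and LOC100363662, at 1.32 and 1.19, whereas the 4 other Pgd probe sets lay between -0.37 and 0.19 at these durations. Chac1, which degrades glutathione, was called lower at both durations (-1.17 and -1.67), and Oplah, which recycles 5-oxoproline, at 5-8d (-1.21).

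Of 21 probe sets for thioredoxin reductases, glutaredoxins and thioredoxin-like proteins, 1 was called higher and 2 lower at 5-8d and none at the other durations. Txndc12 was at 1.02, Glrx1, the cytosolic glutaredoxin, at -2.29 (adjusted p = 0.000714) and Sesn1, a sestrin, at -1.17. Txnrd1, the cytosolic reductase of Txn1, was at 0.60 and 0.46 at 5-8d and 9-14d (adjusted p of 0.0249 and 0.0442), and Txnip, which binds and inhibits thioredoxin, at -0.65 and -0.61 (adjusted p of 0.00615 and 0.00362). Of 5 genes for superoxide and hydrogen peroxide removal, the extracellular superoxide dismutase Sod3 was called lower at 5-8d and 9-14d (-1.88 and -1.31). Fibroblast markers had 3 of 5 called lower at 5-8d and 1 of 5 at 9-14d; their part in the Sod3 result was not tested.

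Among NRF2 and its partners some genes were already called in the first 4 days. Of 8 genes, 2 were called higher at 0.25-4d, 3 at 5-8d and 2 at 9-14d, with none lower. At 0.25-4d, 80 of all 26208 probe sets were called higher. With 8 genes the list is short, and these counts are small. Hmox1, heme oxygenase, was called at all 3 durations (1.58, 1.77 and 2.10), Bach1, a repressor of NRF2 targets, at 0.25-4d (1.00), Mafk, a small Maf partner, at 5-8d (1.09), and Nqo1, a quinone reductase, at 5-8d and 9-14d (1.25 and 1.58) but at 0.16 at 0.25-4d. Nfe2l2, which encodes NRF2, rose at all durations without reaching 2-fold (0.59, 0.78 and 0.73). Of 8 genes for selenoprotein synthesis, none was called; by adjusted p, 2 rose and 1 fell at 5-8d, and 3 rose and 1 fell at 9-14d, beside 14.9% and 11.4% of all probe sets at 5-8d and 17.3% and 18.2% at 9-14d; with 8 genes, nothing is read from these counts.

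**Figure D4:**
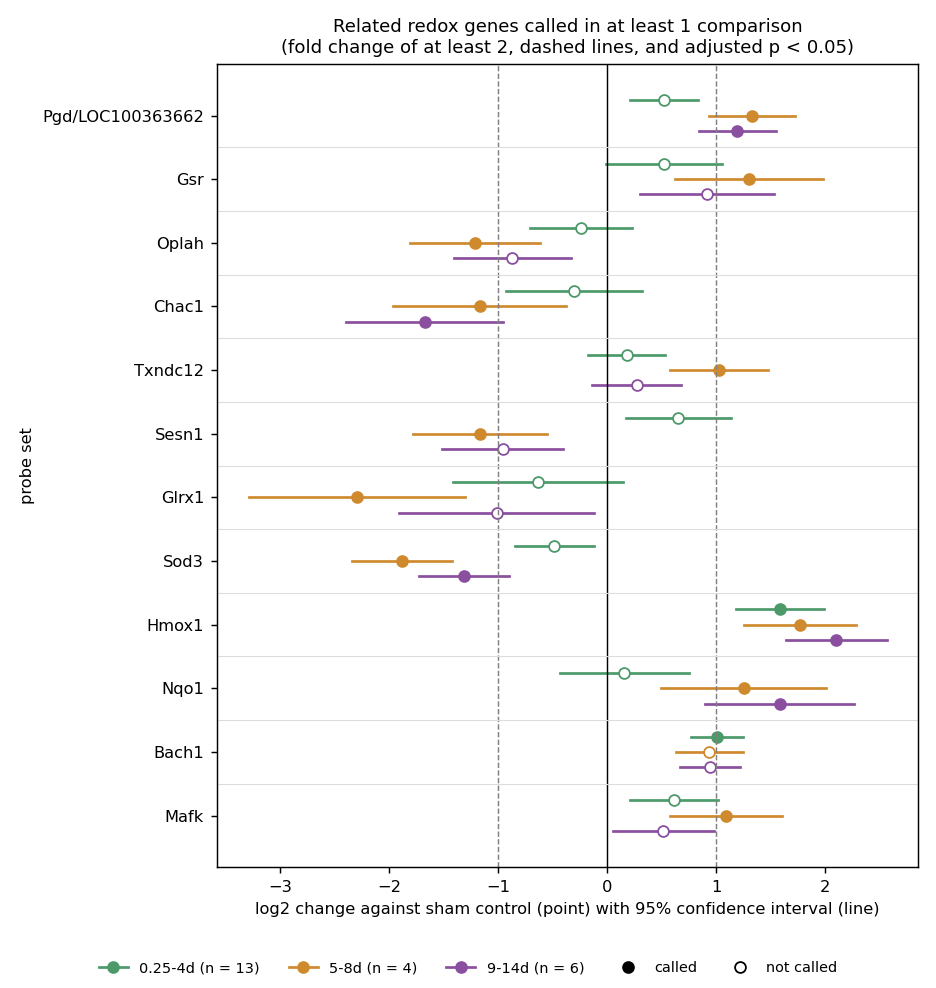
Log2 change against sham control (x axis, points) with the 95% confidence interval (lines) for the 12 probe sets of related redox genes called in at least 1 comparison; colours are the 3 durations, filled points are called and dashed lines mark a 2-fold change. Hmox1 (1.58) and Bach1 (1.00) are the filled points at 0.25-4d, and Glrx1 (-2.29) and Sod3 (-1.88) lie farthest below 0, both at 5-8d.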

How the data were processed

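Proximal gastrocnemius RNA of 28 rats was hybridised to Affymetrix Rat Gene 1.0 ST arrays. Per the study's methods, the authors normalised the arrays by robust multi-array average (RMA) and fitted a linear model with limma's empirical Bayes statistic, each duration against control; the submitters' processing notes list MAS5 and RMA, and versions are not given in the sources used here. The deposited table holds, for each of 26208 probe sets, log2 changes and the Benjamini-Hochberg adjusted p-values of 3 comparisons; its header calls the log2 values lowess normalised, which differs from the methods, and no values of single arrays were analysed here. Precision is limited by the number of arrays.

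From the deposited p-values the adjustment was undone, and each p was turned into a moderated statistic at 28.26 degrees of freedom (24 residual and 4.26 prior), the value at which a probe set's 3 comparisons gave the same SD. SE, 95% intervals and differences between durations followed from the SD, with Benjamini-Hochberg adjustment over all probe sets. Readjusting the recovered p changed 0 calls, and the procedure was tested on simulated data. Named genes were members called in at least 1 comparison or between durations, with full values; other members by value or range; and related genes called in at least 1 comparison, with some further members of those lists named for their role after their values were seen. Members, gene lists and tests were chosen with earlier results of these data known. Python 3.11.15 was used with numpy 2.4.6, scipy 1.17.1, pandas 2.3.3 and matplotlib 3.10.9. Alternatives covered the fold limit, the adjusted p threshold, the adjustment family, centring, shared or cross-hybridising probe sets, counting by symbol and the SD estimate. RefSeq accessions matched 40 of the 42 probe sets.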

Additional observations from a re-analysis of the deposited data

Results flagged for a closer look

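Differences between durations that passed 2-fold and an adjusted p below 0.05 were singled out, since they show members whose response in the first 4 days differed from that later on. On the log2 scale, Mgst2 differed from 0.25-4d by 2.867 at 5-8d and 3.261 at 9-14d, and Mgst3 by -3.166 and -2.09. Gstt3 differed by 1.6 and Gstt2 by 1.257 at 5-8d, and the joint Gstt1 and Gstt3 probe set by 1.195 at 9-14d. Gstm7 differed by -1.565 at 5-8d and Gstm3 by 1.304 at 9-14d. Single arrays far from their group could not be looked for without values of single rats.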

How the results depend on the processing

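Without a fold limit, members called numbered 1 at 0.25-4d, 16 at 5-8d and 21 at 9-14d, against 0, 8 and 9 with it, and members differing from 0.25-4d numbered 16 at 5-8d and 22 at 9-14d, against 5 and 4. With a limit of 1.5-fold, 1 was called at 0.25-4d (Gpx3), and 9 differed from 0.25-4d at 5-8d and 9 at 9-14d. With an adjusted p below 0.01, 3 differed between 5-8d and 0.25-4d, and the log2 changes of Gstm1 at 9-14d (1.402, adjusted p = 0.01925), the joint Gstt1 and Gstt3 probe set at 5-8d (1.171, adjusted p = 0.02163) and Gstt3 at 9-14d (1.317, adjusted p = 0.03923) were no longer called. Gstt3 at 9-14d was also lost when the 3 comparisons were adjusted together (adjusted p = 0.05727). Between 9-14d and 5-8d the count of 0 became 2 when the 3 pairs of durations were adjusted together (Gstm7, adjusted p = 0.003165, and Gstm3, 0.008184), and 1, Gstm7, when only probe sets with a symbol were adjusted (adjusted p = 0.04881) or when each comparison was centred on its median (adjusted p = 0.0409). Centring also turned the 0.25-4d change of Gstm7 from -0.01 to 0.002022, a value near 0 either way. Leaving out shared or cross-hybridising probe sets, counting by symbol and the median of the recovered SDs kept each count within 1.5 times. No paired analysis was possible because the numbers in the sample titles are not shared between groups and the table holds group values. For the same reason leaving out single rats was not run, so whether 1 rat decides a value is unknown, most of all in the 5-8d group of 4.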
